A study of Mus musculus with 5 samples.

Results

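Macrophages of interscapular brown adipose tissue (iBAT) were described from single nuclei RNA sequencing (snRNAseq) of 3-month-old male mice on a C57BL/6J background. The study set littermate control (WT) mice beside Ucp1-STX4KO mice, which carried Ucp1-Cre+/- and STX4 fl/fl. For another assay it describes WT mice as carrying either allele alone, and which of them the sequenced controls carried was not given in the sources used here. Ucp1-Cre acts in brown adipocytes, so the macrophage was not the cell the deletion was aimed at. Nuclei were released by a homogenization chosen to enrich brown adipocyte nuclei and were then sorted, so every share below is a share of sorted nuclei. Each genotype gave 1 library, the methods give 4 male mice without their division among libraries, and the barcode ending that parts library 1 from library 2 is tied to no genotype by the labels. Genotypes were therefore not compared, and no difference has a replicate check. Values are given for both libraries together, and for a single library only where it is named.

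A barcode counted as a macrophage nucleus where it held 500 or more unique molecular identifiers (UMIs), 4 or more UMIs from at least 2 of the 10 genes Adgre1, Mrc1, Csf1r, Ptprc, F13a1, Cd163, Lyz2, Dock2, Gpnmb and Cd84, and 1 or fewer UMIs summed over Ciita, Wdfy4, Bank1, Skap1, Themis, Flt1 and Pdgfra, which mark antigen-presenting, lymphoid, endothelial and fibroblast cells. The nuclei were thus chosen by their own UMI counts of these genes, whose levels are a description. This found 841 of 20307 barcodes (4.14%). They were spread very unevenly, with 33 of 11201 barcodes (0.295%, exact 95% interval 0.203 to 0.414%) in library 1 and 808 of 9106 (8.87%, 8.30 to 9.48%) in library 2. The median depth was 3282 UMIs per macrophage nucleus in library 1 and 2156.5 in library 2, with 177655 and 2414916 UMIs in total. The libraries shared 23 barcode sequences, and 1 macrophage nucleus bore one of them. All intervals below are exact 95% intervals for counting error only and say nothing of the spread between mice.

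Macrophages are phagocytes that settle in fat along vessels and nerves, clear dying cells and take up the lipid and debris those cells leave. Resident cells of this kind carry the mannose receptor Mrc1, the haemoglobin scavenger receptor Cd163 and the coagulation factor subunit F13a1. Macrophages loaded with lipid, often called lipid-associated, instead carry the transmembrane glycoprotein Gpnmb, the lipid-sensing receptor Trem2 and a large lysosomal system, in which the vacuolar proton pump (V-ATPase) keeps the lysosome acid. Atp6v0d2 encodes a subunit of that pump that is found in macrophages and osteoclasts, and the MiT family of transcription factors (Mitf, Tfeb, Tfe3 and Tfec) drives lysosomal genes.

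The label was checked on 21 macrophage markers that the selection did not use. Summed, they reached 3037 CPM (counts per 1000000 UMIs of the group, 2970 to 3105) in macrophage nuclei and 109 CPM (107 to 111) in 12165 adipocyte nuclei, which held 4 or more UMIs over at least 2 adipocyte markers other than Ucp1 and Cidea, no selection gene UMI and 1 or fewer exclusion UMIs. Library 1 had 1790 CPM of them (1599 to 1998), against 3129 CPM (3059 to 3200) for library 2. All 21 were above the adipocyte nuclei. The 242 antigen-presenting nuclei, described below, held 3000 CPM (2903 to 3099) of the same markers, so the sum did not set macrophage nuclei apart from them. Of the 9 with 200 or more macrophage UMIs, 9 were 2-fold or more above all other nuclei, where 21.5% of the genes tested were, and none was below (7.03%). The selection chose nuclei for genes of the same cell type, so this describes the nuclei and tests nothing. Mertk, a receptor for dying cells, stood at 1114 CPM against 22.9 CPM in adipocyte nuclei, and Ctss, a lysosomal protease of antigen-presenting cells, at 481 against 2.07 CPM. Fcgr2b, an inhibitory antibody receptor, stood at 123 against 1.02 CPM and Spi1, the transcription factor PU.1, at 128 against 0.771 CPM. Cd14 had 6 UMIs in all and Fcgr1 had 14.

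The edges of the selection were softer than its middle. The 128 nuclei with exactly 4 selection UMIs, 121 of them in library 2, held 676 CPM of the macrophage markers outside the rule, and the 218 nuclei just outside it with 3 selection UMIs, all in library 2, held 281 CPM. The 350 nuclei with 1 exclusion UMI held 3401 CPM, and the 240 kept out for 2 such UMIs held 3181 CPM. Nuclei carried a median of 11 selection UMIs, from 4 to 173.

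RNA of other cells was present in these nuclei. The 8 adipocyte markers summed to 2187 CPM in macrophage nuclei and 5883 CPM in adipocyte nuclei, with 4171 CPM in library 1 and 2041 CPM in library 2. Plin1, which coats lipid droplets, was the most abundant, Ucp1, the uncoupling protein of brown fat, stood at 429 CPM, and no adipocyte marker was at 0. In 281 macrophage nuclei the adipocyte markers alone reached 4 UMIs over 2 genes, and in 101 they outnumbered the selection UMIs. The 6 skeletal muscle markers summed to 11.3 CPM in library 1 and 810 CPM in library 2, led by the giant sarcomere protein Ttn with 0 and 1269 UMIs. Of all muscle UMIs in macrophage nuclei, 78.9% lay in 10 nuclei. Endothelial, fibroblast, mural and Schwann cell markers stood at 36.6, 154, 135 and 47.4 CPM, each below all other nuclei, with Sox10 of the Schwann cell list at 0, and T cell, B cell, dendritic cell, and mast cell and neutrophil markers at 50.5, 6.56, 54.8 and 94.1 CPM. The 7 exclusion genes summed to 135 CPM. A doublet caller marked 61 of the 841 nuclei (7.25%), and none was removed. In library 2 it marked 57 of 808 macrophage nuclei (7.05%, 5.39 to 9.04%) against 347 of all 9106 barcodes (3.81%, 3.43 to 4.22%), and in library 1 it marked 4 of 33 (12.1%, 3.40 to 28.2%) against 11.3% (10.7 to 11.9%).

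The gene the study deleted, Stx4a, which encodes the membrane fusion protein syntaxin 4, had 13 UMIs in the macrophage nuclei of library 1 (73.2 CPM, 39.0 to 125) and 191 in those of library 2 (79.1 CPM, 68.3 to 91.1). These intervals overlap. In adipocyte nuclei the level was 60.7 CPM for library 1, with an interval of 58.9 to 62.6, and 49.7 CPM for library 2, with one of 46.1 to 53.6. Which exons the UMIs stem from was not stated, so these values check no label.

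Macrophage nuclei were then split by Gpnmb (ENSMUSG00000029816, chromosome 6, 49036546 to 49070929 of GRCm38, plus strand) and Atp6v0d2 (ENSMUSG00000028238, chromosome 4, 19876841 to 19922605, minus strand). A nucleus with any UMI of either gene is called positive, and 654 of the 841 were (77.8%, 74.8 to 80.5%). Library 1 had 5 positive of 33 nuclei (15.2%, 5.11 to 31.9%) and library 2 had 649 of 808 (80.3%, 77.4 to 83.0%), and library, mouse and genotype cannot be told apart in these shares, which rest on 1 library each. Gpnmb was detected in 605 nuclei and Atp6v0d2 in 522, and 473 carried both. Positive nuclei held a median of 4 Gpnmb UMIs and 3 Atp6v0d2 UMIs. Because Gpnmb was also a selection gene, a positive nucleus could enter with fewer UMIs of the others, and the share was 73.4% (of 702 nuclei) when Gpnmb was dropped from the selection. Of the 8 selection genes tested beside Gpnmb, Cd84 was 2-fold or more higher in positive nuclei and F13a1 lower, with a median ratio of 0.772, and the exclusion genes summed to a ratio of 0.783 (0.614 to 1.01). Of the 15 macrophage markers outside the rule that were tested, 5 were higher and 0 lower, with a median of 1.27, where 7.39% and 3.44% of the 4829 genes tested between the classes were.

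Class UMIs were also found in nuclei of other types, and depth differed between the classes. Positive nuclei were deeper, with a median of 2328.5 UMIs against 1729 in negative nuclei. In library 2, 35.1% (33.4 to 36.8%) of 3048 adipocyte nuclei chosen without regard to Gpnmb held a UMI of either gene, at a median depth of 5046 UMIs, and in library 1 it was 0.243% of 9860. Without thinning, 8.79% (7.81 to 9.85%) of these adipocyte nuclei of library 2 held 2 or more, against 70.3% (67.0 to 73.4%) of its macrophage nuclei. Of the antigen-presenting nuclei, those outside the selection with 4 or more UMIs over at least 2 of Ciita, Wdfy4 and Bank1, 112 of 193 in library 2 (58.0%, 50.7 to 65.1%) and 1 of 49 in library 1 held a UMI of either gene. After each nucleus was thinned to 1000 UMIs, which kept 785 of the 841 macrophage nuclei, the positive share in library 2 was 71.9% (68.6 to 75.1%) of 752 macrophage nuclei against 9.28% (8.27 to 10.4%) of 3016 adipocyte nuclei. With 2 or more UMIs required it was 59.7% (56.1 to 63.2%) against 0.597% (0.354 to 0.942%). In library 1 the thinned share was 3 of 33 macrophage nuclei (9.09%, 1.92 to 24.3%) against 5 of 9860 adipocyte nuclei. The class ratios below use the split without thinning and, where no library is named, both libraries. Library 1 held 160361 of the 552840 UMIs of negative nuclei and 17294 of the 2039731 UMIs of positive nuclei. A ratio over both libraries thus mixes class with library in part. The source of the class UMIs in other nuclei was not tested.

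**Figure D1:**
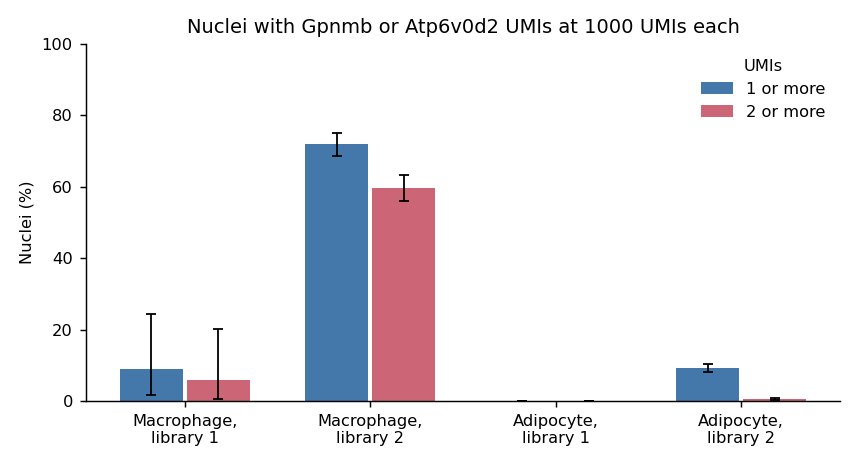
Share of nuclei (%, y axis) with 1 or more (blue) and 2 or more (red) UMIs of Gpnmb and Atp6v0d2 together, after each nucleus was thinned to 1000 UMIs, for macrophage and adipocyte nuclei of each library (x axis). Bars are shares and whiskers exact 95% binomial intervals. The macrophage nuclei of library 2 stand at 71.9% and 59.7%, and all other bars are below 10%.

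Most lipid-associated genes were higher in positive nuclei. Of the 20 genes listed, 17 had 100 or more UMIs over both classes, and 11 of these were 2-fold or more higher in positive nuclei with an interval above 1, where 7.39% of the 4829 genes tested were. One, Apoe, a lipid transport protein, was 2-fold or more lower, where 3.44% of all genes were. The median ratio of the 17 was 3.39, against 0.976 over all genes tested. The summed ratio was lower, at 1.32 (1.27 to 1.37) and at 1.27 within library 2, and in library 1 the sum was 3469 CPM in positive and 5980 CPM in negative nuclei. Cd36, which adipocytes use too, was the most abundant gene of the list. In library 2 alone 11 of 17 were higher and 0 lower, where 7.3% and 2.25% of all genes were, with a median of 2.75 against 0.985. The count was 5 after thinning to 1000 UMIs, 7 without nuclei that held a muscle marker UMI, 7 where 200 UMIs per gene were required and 0 within library 1, each on fewer nuclei, UMIs or genes.

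Lgals3, the lectin galectin 3 that marks damaged lysosomes, had 146 CPM in library 1 and 1169 CPM in library 2. Within library 2 it stood at 1354 CPM in positive and 214 CPM in negative nuclei, a ratio of 6.33 (5.09 to 7.96), with 37.4 CPM in the adipocyte nuclei of that library. Colec12, a scavenger receptor of the collectin family, stood at 463 and 30.6 CPM there, and its 30.6 CPM in negative nuclei was no higher than the 38.5 CPM of adipocyte nuclei. Its class ratio was 11.6 (7.59 to 18.5) over both libraries, 4.97 (3.75 to 6.72) where 3 selection UMIs sufficed and 0.927 in library 1, which had 1 UMI in positive and 10 in negative nuclei. Mmp12, the macrophage elastase, had 518 UMIs in positive and 16 in negative nuclei (ratio 8.77, 5.35 to 15.5), and 1 of all 534 lay in library 1. Cd9, a tetraspanin of the cell surface, had a ratio of 6.90 (3.57 to 15.3), Trem2 of 3.79 (1.94 to 8.49) and the integrin subunit Itgax (CD11c) of 4.43 (2.59 to 8.24). Library 1 held only 3 UMIs of Cd9 and 2 of Trem2. Spp1, the secreted protein osteopontin, had 4 UMIs in all macrophage nuclei. The listed genes that adipocytes also use, Cd36, Lpl, Fabp4 and Plin2, had ratios of 0.940, 0.706, 1.04 and 1.30, and Cd36, Lpl and Fabp4 were lower in macrophage nuclei than in all other nuclei.

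Genes of cholesterol storage and export had a summed class ratio near 1, of 0.986 (0.954 to 1.02) and of 0.959 within library 2. Of the 11 such genes tested, 3 were 2-fold or more higher in positive nuclei (7.39% of all genes) and none was lower, with a median of 1.30. Soat1, the enzyme that esterifies cholesterol for storage, had 357 CPM in positive and 54.3 CPM in negative nuclei (ratio 6.58, 4.57 to 9.82), and its 14 UMIs in library 1 lay 11 in the 5 positive and 3 in the 28 negative nuclei. Nceh1, which cleaves cholesterol esters, had a ratio of 4.41 (3.28 to 6.08) and Abcg1, a cholesterol exporter, of 4.31 (2.68 to 7.37). The exporter Abca1 had 1.12 (0.977 to 1.28), and Pparg and Acsl1, both abundant in adipocytes, had 0.893 and 0.771.

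**Figure D2:**
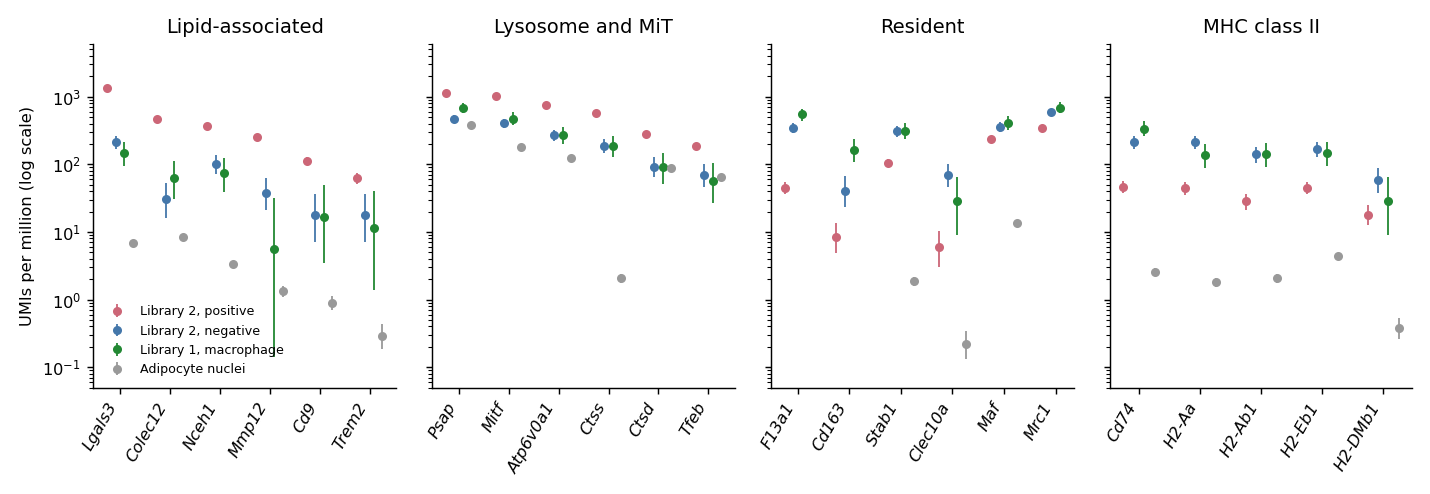
Level of named genes (x axis) in CPM on a log axis, in positive (red) and negative (blue) macrophage nuclei of library 2, all macrophage nuclei of library 1 (green) and adipocyte nuclei (grey). Points are summed UMIs and whiskers exact 95% Poisson intervals. F13a1, Cd163 and Mrc1 have no grey point because adipocyte nuclei were chosen without them. The negative nuclei of library 2 and the macrophage nuclei of library 1 lie on the same side of the positive nuclei of library 2, with Lgals3 at 214 and 146 CPM and Cd74 at 214 and 338 CPM.

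Lysosomal and proton pump genes were higher in positive nuclei as a group. Summed without Atp6v0d2, the 24 genes stood at 6276 CPM in positive and 3156 CPM in negative nuclei, a ratio of 1.99 (1.89 to 2.09), and the ratio within library 2 was 1.98 (1.87 to 2.10). Of 19 tested, 7 were 2-fold or more higher (7.39% of all genes) and 0 lower (3.44%), with a median of 1.70. Macrophage nuclei as a whole had 3473 CPM in library 1, 5768 CPM in library 2, and adipocyte nuclei 2412 CPM.

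Of the proton pump, 4 subunits beside Atp6v0d2 passed 2-fold. Atp6v0a1, of the membrane sector, had 270 CPM in library 1 and 682 CPM in library 2 and a class ratio of 2.88 (2.43 to 3.43). Of the soluble sector, Atp6v1a had a ratio of 2.70 (2.12 to 3.49), Atp6v1b2 of 2.40 (1.92 to 3.05) and Atp6v1c1 of 3.36 (2.36 to 4.91). Atp6v0d1, the widely expressed counterpart of Atp6v0d2, had 1.60 (1.28 to 2.03) and Atp6v0e had 1.11 (0.736 to 1.73). Among the contents of the lysosome, the protease cathepsin D (Ctsd) had a ratio of 3.05 (2.28 to 4.16), Ctss of 3.44 (2.78 to 4.31) and the sphingolipid activator Psap of 2.31 (2.04 to 2.63). Ctsk, a collagen-cleaving cathepsin best known from osteoclasts, had 74 UMIs in positive nuclei and 0 in negative ones, at least 6.69-fold higher against a floor of 3 UMIs for the negative class. Lamp1 and Lamp2, the structural membrane proteins of lysosomes, had 1.29 (0.983 to 1.71) and 1.05 (0.883 to 1.25).

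Of the 4 MiT transcription factors, 3 were 2-fold or more higher in positive nuclei, where 7.39% of all genes were. Mitf had 473 CPM in library 1 and 933 CPM in library 2, and within library 2 it had 1036 CPM in positive and 403 CPM in negative nuclei, with 118 CPM in adipocyte nuclei there. Its class ratio was 2.58 (2.25 to 2.98), and 1.91 (1.60 to 2.28), below 2-fold, after thinning to 1000 UMIs. Tfec, a member restricted mostly to macrophages, had 3.22 (1.93 to 5.75) and Tfeb had 2.90 (2.05 to 4.23). Tfe3 had 0.960 (0.604 to 1.58).

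MiT factors bind a short E-box element, and its letters TCACGTG were looked for on both strands in the 250 bases before the start of each gene in RefSeq promoters of GRCm38.p6. They were present in 4 of the 17 lysosomal and proton pump genes with an entry (23.5%), in 6.81% of all genes tested between the classes, and in 3.58% of all 27025 genes. Of the genes 2-fold or more higher in positive nuclei 7.14% held it and of those lower 2.40%. The variant TCATGTG was in 5.00%, 4.00% and 2.46% of the higher, lower and all tested genes. The 4 lysosomal genes were Ctsd and Atp6v1a, both past 2-fold, and Lamp1 and Mcoln1, which were not, and Nceh1 of the lipid-associated genes held it too. TCACGTGA reads as the element on both strands, which is the case in Atp6v1a and Ctsd and also in Mcoln1, not past 2-fold. Lamp1 held further copies nearer its start. The 30-base windows of Ctsd, Atp6v1a, Nceh1 and Lamp1 are shown because they put the same letters beside different class ratios. They run in the direction of transcription, with the element or its reverse complement in capitals. Ctsd is at chr7:142387908-142387937 (minus strand), Atp6v1a at chr16:44139373-44139402 (minus), Nceh1 at chr3:27182967-27182996 (plus) and Lamp1 at chr8:13159088-13159117 (plus).
Ctsd, ratio 3.05: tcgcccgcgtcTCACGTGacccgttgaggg
Atp6v1a, ratio 2.70: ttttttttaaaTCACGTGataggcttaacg
Nceh1, ratio 4.41: ctgaggaggaaCACGTGAaacagcagctgc
Lamp1, ratio 1.29: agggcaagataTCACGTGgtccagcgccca
The element shown starts 99 bases before the start site in Ctsd, 132 in Atp6v1a, 26 in Nceh1 and 62 in Lamp1. The Gpnmb promoter window held neither form, which says only that these letters are not in it, and Atp6v0d2 had no entry.

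Among genes of resident macrophages, F13a1 and Stab1 were 2-fold or more lower in positive nuclei and Colec12 was higher. F13a1 had 546 CPM in library 1 and 93.2 CPM in library 2. Within library 2 it had 44.5 CPM in positive and 344 CPM in negative nuclei, and in library 1 its 97 UMIs all lay in the 28 negative nuclei. A UMI of F13a1 was found in 40 of 654 positive nuclei (6.12%) and 70 of 187 negative ones (37.4%), and after thinning to 1000 UMIs in 3.36% and 23.8%. F13a1, Cd163 and Mrc1 are selection genes, so a nucleus without Gpnmb needed more of them to enter, and their ratios of 0.105, 0.111 and 0.543 are given as a description. Cd163 had 163 CPM in library 1 and 13.7 CPM in library 2.

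Among resident genes that the selection did not use, Stab1, a scavenger receptor that takes up dying cells and modified lipoproteins, fell from 317 CPM in negative to 102 CPM in positive nuclei (ratio 0.324, 0.264 to 0.398), with 0 of its 55 library 1 UMIs in positive nuclei. Maf, a transcription factor of resident macrophages, had a ratio of 0.617 (0.524 to 0.730). The lectin Clec10a had 12 UMIs in positive and 32 in negative nuclei (0.102, 0.0477 to 0.203). Of the 16 resident genes, 6 had 100 or more UMIs, 1 (Colec12) was 2-fold or more higher (7.39% of all genes) and 1 (Stab1) lower (3.44%), with a median of 0.985. At any number of UMIs, 1 of the 16 was higher and 7 were lower. The shares of all genes cover only genes with 100 or more UMIs, so this count has no share to be set against and is a description. Summed, the 16 genes stood at 1131 CPM in each class. Of this Colec12, also in the lipid-associated list, made up 460 CPM in positive and 39.8 CPM in negative nuclei. The other 15 summed to 671 and 1091 CPM, a ratio of 0.615 (0.559 to 0.678), and of 0.629 (0.563 to 0.703) within library 2. Within library 1 the ratio of all 16 was 0.574 (0.291 to 1.03). Timd4, Lyve1, Folr2 and Pf4, markers of long-lived resident cells, had 4, 10, 6 and 7 UMIs in all.

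MHC class II genes, which present antigen to helper T cells, were lower in positive nuclei without exception among those tested. The 7 genes summed to 198 CPM in positive and 792 CPM in negative nuclei, a ratio of 0.250 (0.218 to 0.287), and 4 of 4 tested were 2-fold or more lower, where 3.44% of all genes were. Markers of other antigen-presenting and lymphoid cells were also sparser in positive nuclei, with summed ratios of 0.531 (0.371 to 0.768) for dendritic cells, 0.518 (0.357 to 0.760) for T cells and 0.113 (0.0312 to 0.344) for B cells, on 94, 86 and 5 UMIs in positive and 48, 45 and 12 in negative nuclei, and their part in the MHC class II ratio was not tested. Cd74, the invariant chain, had 338 CPM in library 1 and 73.3 CPM in library 2, where it stood at 46.0 CPM in positive and 214 CPM in negative nuclei. H2-Aa, H2-Ab1 and H2-Eb1, chains of the class II molecules, had ratios of 0.233, 0.218 and 0.306. In the 5 positive nuclei of library 1 the list had 18 UMIs. Its ratio to the negative nuclei there was 1.34 (0.766 to 2.20), which sets no direction. H2-DMa, a peptide loading chain, had 20 and 4 UMIs in the classes and was too sparse to place. The rule kept out nuclei with more than 1 UMI over Ciita, Wdfy4 and other genes, and the 242 antigen-presenting nuclei had 1111 CPM of the 7 genes.

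**Figure D3:**
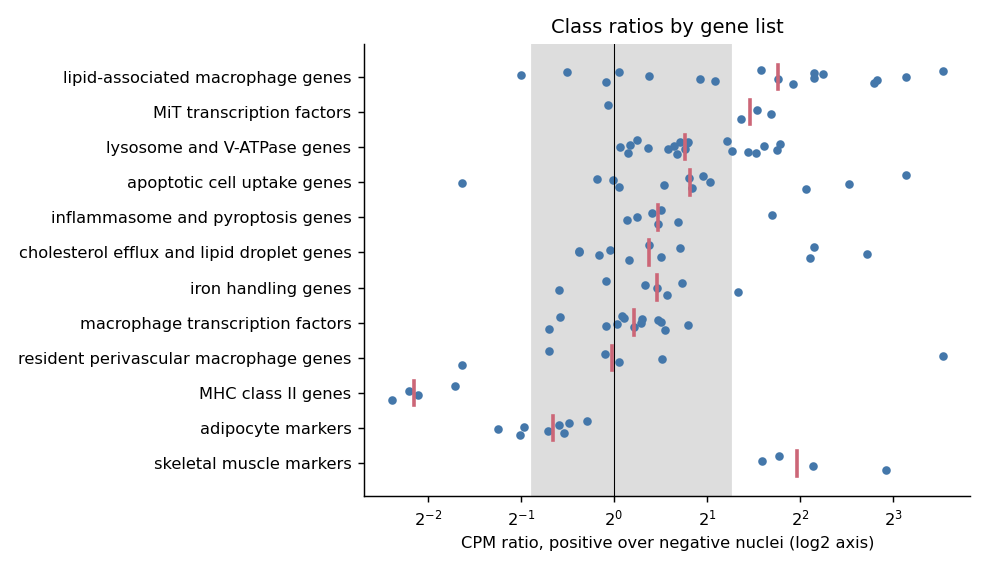
CPM ratio of positive over negative nuclei (x axis, log2 scale) for each gene with 100 or more UMIs over both classes (blue points), by gene list (y axis). Red bars are list medians and the grey band holds the ratios from the 5th to the 95th percentile of all tested genes, 0.542 to 2.39. The lipid-associated list lies mostly to the right of the band, the MHC class II list to its left, and the macrophage transcription factors inside it.

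Monocyte genes were sparse. Of 13, only Nr4a1, an early response factor, had 100 UMIs, with a ratio of 0.756, and the 13 summed to 173 CPM in positive and 371 CPM in negative nuclei. Ccr2, the receptor that brings monocytes into tissue, had 19 UMIs in positive and 35 in negative nuclei (ratio 0.147, 0.0795 to 0.264), and 18 of the 54 were in library 1. Fn1 (fibronectin) had 15 and 23, and the leukocyte integrin Itgal 12 and 27. Ly6c2 had 1 and 1. Genes of alternative activation summed to 33.3 CPM in positive and 159 CPM in negative nuclei, a ratio of 0.209 (0.150 to 0.291), but none had 100 UMIs, and Retnla had 8.

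Of 12 receptors, bridges and engulfment genes for dying cells, 4 were 2-fold or more higher in positive nuclei (7.39% of all genes) and 1 (Stab1) was lower (3.44%), with a median of 1.77. Mertk had 484 CPM in library 1 and 1160 CPM in library 2, and within library 2 it stood at 1331 CPM in positive and 283 CPM in negative nuclei, with 39.2 CPM in adipocyte nuclei there. Its ratio was 4.18 (3.58 to 4.89). The bridging protein Mfge8 had a ratio of 5.73 (2.71 to 14.5), Cd300lf, a phosphatidylserine receptor, of 8.81 (3.36 to 32.8), and Elmo1, which drives engulfment through Rac, of 2.04 (1.75 to 2.39). Axl, a relative of Mertk, had 1.79 (1.27 to 2.57), and Tyro3 had 0 UMIs.

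Macrophage transcription factors with 100 or more UMIs were not called between the classes. Of 13 tested, 0 were called in either direction, with a median of 1.16, and Bhlhe41, with 78 UMIs, was too sparse to be tested, at a ratio of 2.75 (1.27 to 7.08). The sum of the list had a ratio of 1.12 (1.08 to 1.17), and of 1.06 within library 2. In library 1 it was 10408 CPM (8943 to 12045) in the 5 positive and 4633 CPM (4306 to 4979) in the 28 negative nuclei. Fibroblast markers stood at 2082 and 49.9 CPM in these nuclei, and their part in the library 1 values was not tested. Runx1 had 557 CPM in library 1 and 918 CPM in library 2 and a class ratio of 1.23 (1.10 to 1.37), Zeb2 had 1.23 (1.15 to 1.32) and Spi1 had 1.46 (1.09 to 2.01). Iron handling genes had a median of 1.37, with 1 of 7 tested, the lysosomal metal transporter Slc11a1, 2-fold or more higher (2.51, 1.69 to 3.85), against 7.39% of all genes. Within library 2 it was 3 of 6 (7.3% of all genes), with a median of 1.71, and Tfrc, the transferrin receptor, and the iron exporter Slc40a1 passed there, at 2.20 and 2.03. The 9 UMIs of Slc11a1 in library 1 lay 1 in positive and 8 in negative nuclei.

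Inflammasome and pyroptosis genes, which the study followed in brown adipocytes, were carried by macrophage nuclei. The 12 genes summed to 677 CPM (646 to 710) in macrophage nuclei, 17.9 CPM in adipocyte nuclei and 838 CPM (787 to 892) in antigen-presenting nuclei. By library the sum was 236 CPM (170 to 320) and 710 CPM (676 to 744), and 11 of the 12 were above the adipocyte nuclei, the exception being the adaptor Pycard with 4.63 against 9.91 CPM. Nlrp1b, an inflammasome sensor, had 13 UMIs in library 1 (73.2 CPM) and 606 in library 2 (251 CPM), against 0.673 CPM in adipocyte nuclei. Aim2, the sensor of DNA in the cytosol, had 66.7 CPM and Nlrc4 had 58.6 CPM. The pore-forming Gsdmd had 39.3 against 0.428 CPM, the protease Casp1 15.4 against 0.685 CPM, and its substrate Il18 34.3 against 0.673 CPM.

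Between the classes, the sum had a ratio of 1.35 (1.19 to 1.53) over both libraries and 1.09 (0.955 to 1.25) within library 2. It was 2.09 (1.87 to 2.34) where Atp6v0d2 alone set the classes. Of the 7 tested, 1 was 2-fold or more higher, a count near the 7.39% of all genes. That was Naip2, a receptor for bacterial proteins, with 3.23 (1.84 to 6.21). Nlrp3 had 9 UMIs in each class (0.271, 0.0953 to 0.771). Inflammatory cytokines were sparse. Tgfb1 had 247 UMIs in all macrophage nuclei, Il1a 20, Il12b 17, Ccl4 11, Tnf 9 and Il1b 8, the other 8 of the 14 genes had 5 or fewer, and Ccl3 and Ptgs2 had 0. Tgfb1 was the 1 gene tested, with a ratio of 2.04 (1.38 to 3.11) and of 1.75 within library 2.

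**Figure D4:**
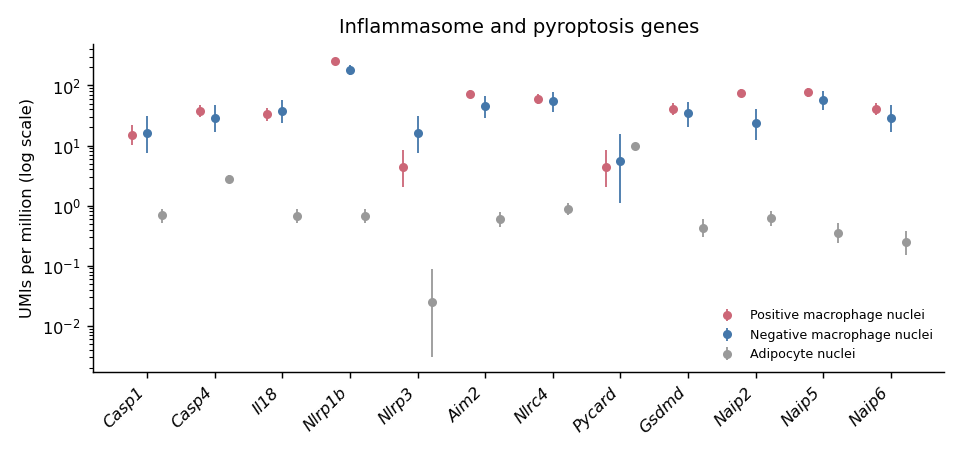
Level of 12 inflammasome and pyroptosis genes (x axis) in CPM on a log axis in positive (red) and negative (blue) macrophage nuclei and adipocyte nuclei (grey), both libraries summed. Points are summed UMIs and whiskers exact 95% Poisson intervals. Both macrophage classes lie above the adipocyte nuclei for all genes but Pycard.

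Growth factors and clearance of noradrenaline completed the lists. Of 6 growth factors tested, 3 were 2-fold or more higher in positive nuclei (Pdgfa 5.46, Tgfb1 2.04 and Hgf 2.13), where 7.39% of all genes were, and the median was 1.73. The summed ratio of the list was 1.04 (0.953 to 1.14). Within library 2 only Pdgfa, at 3.85, was past 2-fold among the 6. Gdf15, a stress-induced hormone, had 97 and 2 UMIs (13.1, 3.54 to 110), below the 100 UMIs needed to be tested. Igf1 had 169 CPM and a ratio of 1.42 (1.10 to 1.87). Slc6a2, Th and Dbh, the noradrenaline transporter and enzymes of noradrenaline synthesis, had 0 UMIs in macrophage nuclei, which at 2592571 UMIs allows up to 3 UMIs each, and Maoa, which degrades noradrenaline, had 59. Osteoclast and cell fusion genes had 455 UMIs in all, with Dcstamp at 7 and Ocstamp and Calcr at 0, and the receptor Tnfrsf11a (RANK) led them with 201 UMIs and a ratio of 0.819 (0.591 to 1.15). Cell cycle genes had 79 UMIs in all, 54 of them Diaph3, with 4 of Mki67 and 2 of Top2a.

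Across all genes, 357 of 4829 were 2-fold or more higher in positive nuclei and 166 were lower. Within library 2 these were 334 and 103 of 4574, and 286 and 66 genes were called in both. Of the genes on the same side of 1 in both libraries, the 10 with the highest ratios were Stra6l, AU022793, Stac2, Ahnak2, A430010J10Rik, Cdk18, Flrt2, Pkdcc, Shisa9 and Sel1l3. Each had 1 to 7 UMIs in the positive nuclei of library 1 and 0 in the negative ones, so library 2 set their size. Genes without a library 1 UMI in either class could not enter this ranking, such as Cdkn1c and Dock3, with ratios of 41.2 and 39.0. Stra6l, a receptor for retinol binding protein, had 132 and 0 UMIs in the classes, at least 11.9-fold higher against the floor of 3 UMIs for the negative class, and Ahnak2, a large scaffold protein, 418 and 7 (16.2, 7.79 to 40.5). The 10 lowest were F13a1, P3h2, Cd74, Rbpj, Lifr, Rnf152, Ntrk2, Pou2f2, H2-Aa and Ms4a6b. Rbpj, the transcription factor of the Notch pathway, fell from 1105 CPM in negative to 231 CPM in positive nuclei (0.209, 0.185 to 0.236). Rnf152 and Ntrk2 were higher in adipocyte nuclei, at 605 and 510 CPM, than in either class, and Rnf152 had a ratio of 0.821 within library 2. Lifr had 0.212 over both libraries and 0.346 within library 2. Ranked within library 2 alone, Trim29, Gm4131, Rps6ka2 and Cdkn1c were among the 10 highest, and of the highest genes listed above only Stra6l and AU022793 were. H2-Ab1, Pld4, Ripor2 and H2-Eb1 were among the 10 lowest there, and Lifr and Rnf152 were not. Adipocyte markers as a list were lower in positive nuclei, with a summed ratio of 0.585 and 0.700 within library 2, and muscle markers had summed ratios of 5.50 and 4.03. The muscle sum rested on few nuclei, since 10 nuclei held 78.9% of it and the 5 nuclei with 4 or more muscle UMIs over at least 2 genes were all positive. A muscle UMI was found in 39.0% of positive and 43.4% of negative nuclei of library 2. The part of adipocyte RNA in the class ratios was not tested.

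Against all other nuclei, the 15 genes with the highest ratios included the class genes Gpnmb and Atp6v0d2 and the selection gene Cd84, which the selection and the split had used. The others were Gm2164, Gm6209, Pik3r5, St18, Tmem51, Clec4d, Cd300lb, Itgax, Ptafr, Myo1f, Mamdc2 and Lgals3. Pik3r5, a regulatory subunit of the leukocyte PI3 kinase, had 388 CPM against 1.10 CPM in adipocyte nuclei, and Myo1f, a myosin of leukocytes, 870 against 2.85 CPM. The zinc finger factor St18 had 609 against 1.70 CPM, with 744 CPM in positive and 110 CPM in negative nuclei. Mamdc2 had 681 and 38.0 CPM in the classes, with 4 of its 1411 UMIs in library 1. Gm2164, Gm6209 and Clec4d had 0 UMIs in library 1, whose 177655 macrophage UMIs leave a floor of 3.

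Levels were graded over the number of class UMIs. Nuclei of library 2 were binned by their Gpnmb and Atp6v0d2 UMIs after thinning to 1000 UMIs, with 211 nuclei at 0, 92 at 1, 62 at 2, 192 at 3 to 5 and 195 at 6 or more. Mertk stood at 251, 785, 1108, 1500 and 2358 CPM in these bins and Lgals3 at 262, 652, 1031, 1675 and 2319 CPM. Mitf went from 410 to 1660 CPM, Soat1 from 74.3 to 603 CPM and Colec12 from 40.8 to 962 CPM, each higher in every successive bin. F13a1 stood at 163, 129, 107, 20.6 and 13.8 CPM, with the largest step between 2 UMIs and 3 to 5. F13a1 and Mrc1 are selection genes, as Gpnmb is, so nuclei with few Gpnmb UMIs needed more UMIs of the others to enter. The levels of F13a1 and Mrc1 over the bins are therefore given as a description. Cd74 stood at 127 CPM in the first bin, 53.8 and 65.2 CPM in the next ones and 41.3 and 32.8 CPM in the last. Mrc1 was nearly level, at 379, 398, 415, 413 and 315 CPM, while its class ratio within library 2 was 0.586 (0.504 to 0.683). The first bin is not the negative class, which has 159 nuclei in library 2, because thinning also removed class UMIs from positive nuclei. Median depths were 2222, 2063, 2008, 2200.5 and 2661 UMIs. Ucp1 went from 583 to 207 CPM over the same bins, and Ttn was 1370 CPM in the first bin and at most 111 CPM in the others.

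**Figure D5:**
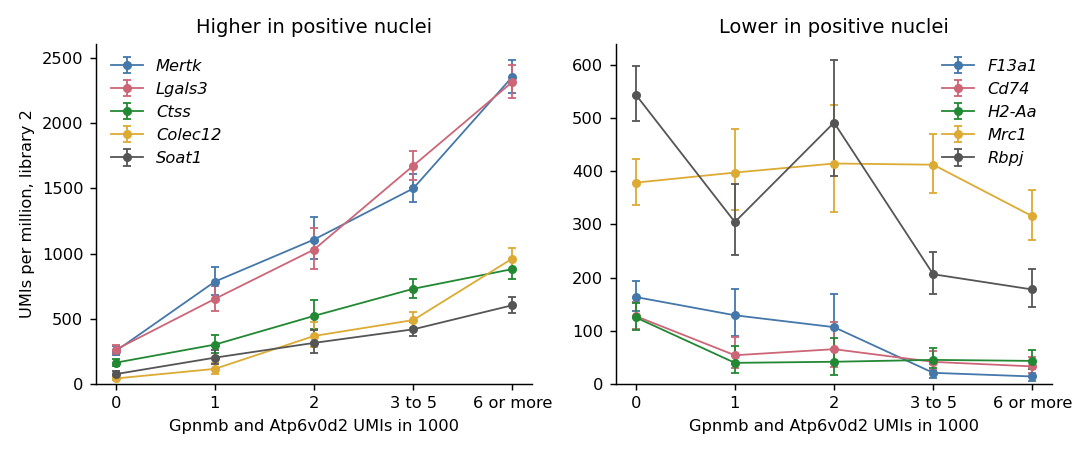
Level in CPM (y axis, linear) of genes higher (left) and lower (right) in positive nuclei, by the number of Gpnmb and Atp6v0d2 UMIs in 1000 (x axis), in macrophage nuclei of library 2. Points are summed UMIs of all nuclei of a bin and whiskers exact 95% Poisson intervals. Mertk climbs from 251 to 2358 CPM, F13a1 falls from 163 to 13.8 CPM and Mrc1 lies between 315 and 415 CPM. F13a1 and Mrc1 are selection genes, as Gpnmb is.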

How the data were processed

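Nuclei were sequenced with a droplet 3′ assay. Per the labels, the authors processed reads with Cell Ranger 6.1.2 and Seurat 4.1.0 on mm10 and deposited raw UMI counts per gene and barcode, with the libraries of a matrix pooled and told apart only by the barcode ending. From these counts, macrophage, adipocyte and antigen-presenting nuclei were chosen by summed marker UMIs. UMIs were summed per group and given as CPM with exact Poisson intervals, shares with exact Clopper-Pearson intervals and ratios with exact conditional binomial intervals (95%). A gene was tested between the classes with 100 or more UMIs over both, and against other nuclei with 200 or more in macrophage nuclei. It was called past 2-fold where its interval also left out 1. Counts of 0 were bounded by 3 UMIs. No p-values were computed, since no label ties a library to its sample and each group is 1 library. Named genes were the selection, exclusion and list genes, most abundant first, the 10 highest and lowest class ratios on the same side of 1 in both libraries, and the 15 highest ratios to other nuclei. Genes named from the ranking within library 2 were chosen after seeing their values. Genes, lists and members were chosen with earlier results of these data known. Genes were grouped in 31 lists, and list genes named beyond the most abundant were chosen after their values were seen. Doublet scores came from scrublet in scanpy 1.11.5, run per library, with Python 3.11.15, numpy 2.4.6 and scipy 1.17.1. Adipocyte nuclei chosen without regard to Gpnmb, and macrophage nuclei without muscle UMIs, were added after seeing the data. Gene positions are from the GENCODE annotation of GRCm38. Some list genes are not reported here.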

Additional observations from a re-analysis of the deposited data

Results flagged for a closer look

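The same selection was run on the matrix of iBAT nuclei from C57BL/6J mice of 2, 12 and 24 months, which no comparison above uses. It found 78 macrophage nuclei among 30000 barcodes (0.260%, 0.206 to 0.324%), 21, 42 and 15 by barcode ending, of which none is tied to an age by the labels. These nuclei had a median of 1527 UMIs. RNA of other cells was present, with endothelial markers at 1466 CPM (1270 to 1685), mural at 891 CPM, Schwann cell at 715 CPM and fibroblast markers at 427 CPM, and the macrophage markers outside the rule stood at 2336 CPM (2085 to 2607). A UMI of Gpnmb or Atp6v0d2 was present in 2 of the 78 (2.56%, 0.312 to 8.96%), both in 1 library. F13a1 stood at 1201 CPM (1024 to 1400), Mrc1 at 1208 CPM and Cd163 at 317 CPM, and Cd74 at 589 CPM. Mmp12 and Ctsk had 0 UMIs, which at 135729 UMIs allows up to 3 UMIs each. The 12 inflammasome and pyroptosis genes summed to 700 CPM (566 to 856), and Nlrp3 had 17 UMIs (125 CPM). The matrices were made separately, so the levels are given side by side and were not compared.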

How the results depend on the processing

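Of the 160 values recomputed under the alternatives for class ratios whose interval left out 1, 158 lay on the same side of 1 as the reported ratio. The resident genes, whose ratio had no side of 1, ranged from 0.574 (library 1) to 1.44 (Atp6v0d2 alone). Within library 1 alone, with 5 positive nuclei, the MHC class II ratio was 1.34 and that of Colec12 0.927, on the other side of 1. Those of Lgals3 and Cd74 were 2.21 and 0.843, and the intervals of these 4 ratios all held 1. The ratio of Mrc1 was 0.314 and the lysosomal ratio 2.12. In that library 16 genes were higher and 93 lower, and 0 lipid-associated genes passed 2-fold. Within library 2 alone 103 genes were lower. The positive share was 15.2% in library 1. Dropping Gpnmb from the selection gave a share of 73.4%, ratios of 2.25 (lysosomal) and 0.299 (MHC class II) and 289 genes lower. With 3 selection UMIs the lysosomal ratio was 1.77 and 88 genes were lower, and with 6 it was 2.26, with a share of 81.0%. Allowing no exclusion UMI left 491 nuclei, a lysosomal ratio of 1.84 and 80 genes lower. Gpnmb alone gave 71.9%, 1.82 and 0.207, and Atp6v0d2 alone 62.1%, 2.11 and 0.427, with 381 genes lower. With Atp6v0d2 alone the ratio of Cd74 was 0.357, of Mrc1 0.879 and of F13a1 0.158. With 2 or more class UMIs against none the ratios were 2.10 and 0.209, and that of F13a1 0.0582. Thinning to 1000 UMIs gave 69.3%, an MHC class II ratio of 0.210, a ratio of 0.164 for F13a1 and a Lgals3 ratio of 4.402, 158 genes higher, 85 lower and 5 lipid-associated genes, on fewer UMIs. With 200 UMIs per gene the counts were 232, 77 and 7, and with 50 UMIs 519 genes were higher and 329 lower. The mean over nuclei gave a lysosomal ratio of 1.87. Leaving out nuclei with a muscle marker UMI left 517 nuclei and 7 lipid-associated genes. The resident genes without Colec12 were summed after seeing the data. Causes beyond fewer nuclei or UMIs were not tested. No paired analysis was possible because the groups have 1 library each and no test was made. Depth limits library 1, where a gene with no UMI in 177655 may hold up to 3, and intervals cover counting error only.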
